A study of Mus musculus with 6 samples.

Results

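The 10 genes described here sense or handle foreign and misplaced nucleic acid, and were followed in mouse regulatory T cells (Treg cells) with and without Crlf2, the receptor subunit that binds the cytokine TSLP. The genes were chosen by name, as Ddx58, Ifih1, Dhx58, Mavs, Eif2ak2, Mb21d1, Tmem173, Ifi204, Trex1 and Tlr7, and for each symbol the transcript row with the most reads over all libraries was kept. All 10 symbols were found among the 23992 symbols of the count table, and all 10 were among the 12719 genes with enough reads to be tested, and 6 libraries of total RNA were sequenced, 3 of KO cells (Foxp3YFP-Cre/Y with Crlf2fl/fl) and 3 of WT cells (Foxp3YFP-Cre/Y). Both groups thus carried the Foxp3-driven Cre with its yellow fluorescent protein, were sorted live as CD4+ and fluorescent, and came from spleen and lymph nodes pooled together, per the labels. In the KO, Cre driven by Foxp3 deletes in Foxp3-expressing cells, so Crlf2 in any other cell of a library is left in place. No age is given, and nothing in the labels says that replicates came from separate animals, which means that the p-values reflect no more than library-to-library variation, possibly technical. Title and genotype tag place each library in the same group, while the strain line of the descriptions names the opposite genotype.

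Crlf2 was at 9.06, 6.72 and 3.55 CPM in KO replicates 1 to 3 against 92.8, 146 and 105 CPM in the WT libraries in the same order, where CPM is the read count scaled to library size with TMM factors. Its log2 fold change, KO over WT throughout, was -4.16 (SE 0.36, adjusted p = 0.00468 by edgeR), in the direction of the titles and against the strain line. Foxp3, the factor that defines Treg cells, was at 434 ± 52.1 CPM in the KO libraries and 370 ± 148 CPM in the WT libraries (SD, n = 3 each), and all 9 Treg and T cell markers looked up were detected. Library totals were 9649591 to 18352409 reads in KO and 1439738 to 12180554 reads in WT, the lowest being WT replicate 2. WT replicate 3 stood apart through erythroid transcripts, which made up 14.5% of its reads against 0.171% to 0.687% in the other libraries, and it had the lowest summed Treg and T cell marker level (2479 CPM, against 4198 to 4845 CPM elsewhere). Lung epithelial transcripts, foreign to the labelled tissue, took 0.264% to 2.07% of the reads in KO and 1.78% to 7.93% in WT. The name of the count table mentions lung.

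Cells recognise viral or misplaced nucleic acid with receptors in the cytosol and in endosomes. RIG-I-like receptors bind RNA and signal through the mitochondrial adaptor MAVS, cGAS binds DNA and makes a cyclic dinucleotide that activates STING, and TLR7 reads single-stranded RNA inside endosomes. Each route can switch on type I interferon genes, and interferon in turn raises the transcription of many of the sensors. In T cells STING is abundant, and its activation can restrain division and trigger cell death.

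Of the 10 genes, 4 fell in KO: the RNA helicase sensors Ifih1, Dhx58 and Ddx58, and Tmem173, which encodes STING. No sensor gene rose. Of all 12719 tested genes, 0.983% were called lower in KO and 0.755% higher (1.74% in all) at an edgeR adjusted p under 0.05. An unadjusted p under 0.05 with a lower value in KO was reached by 8 of the 10, and by 9.13% of all tested genes. All 10 sensor genes had a negative log2 fold change, with a median of -1.30, whereas the median over all tested genes was -0.04 and 54.2% of them were negative. The 3 KO libraries lay below the 3 WT libraries for 8 of the 10 genes (11.5% of all tested genes), the exceptions being Mavs and Mb21d1. The 10 genes were chosen with earlier results of these data known, so these shares are no independent test of them. In whole-population RNA, fewer cells carrying a transcript and less transcript per cell cannot be told apart.

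**Figure D1:**
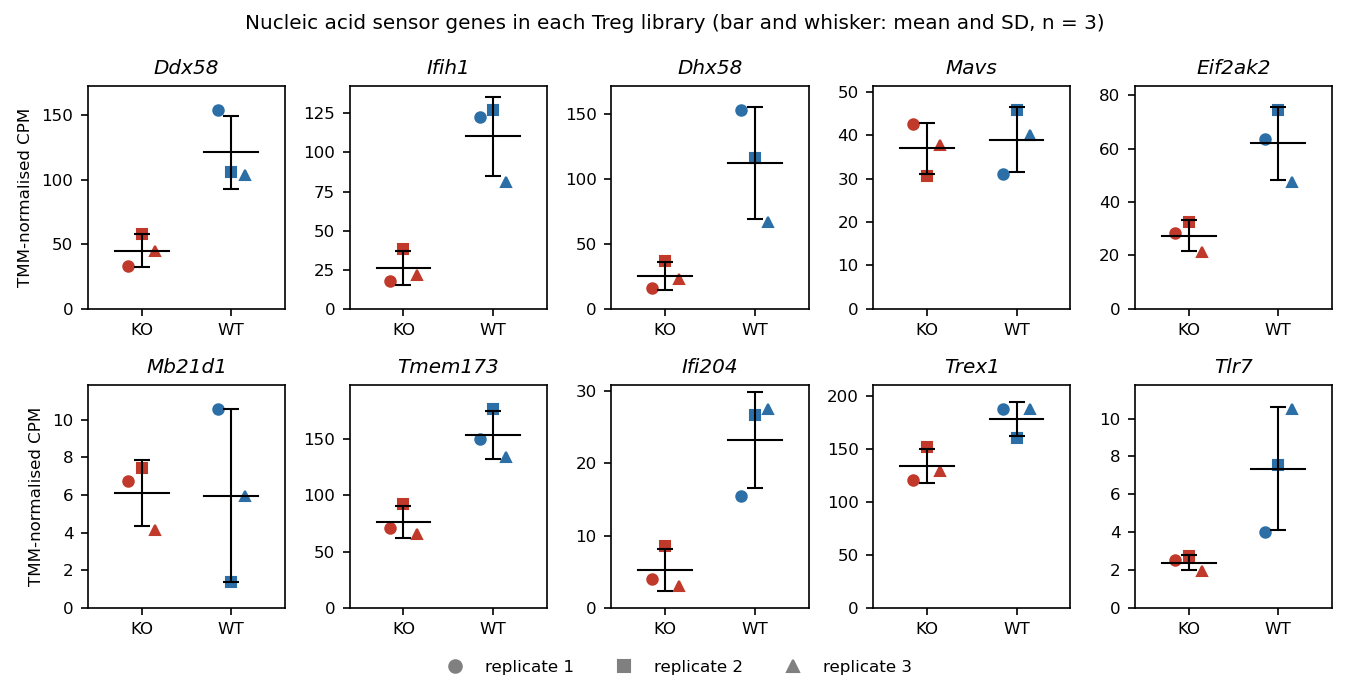
Level of each sensor gene in the 6 libraries (vertical axes: TMM-normalised CPM, each starting at 0; symbols: replicates 1 to 3; bar and whisker: mean and SD, n = 3). The KO libraries sit below the WT libraries in every panel but Mavs and Mb21d1; for Ddx58 they reach 57.8 CPM at most, against at least 103 CPM in the WT libraries.

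Short stretches around the start sites of 3 RNA sensor genes are shown because each holds the core of the interferon-stimulated response element, the DNA element bound by interferon-activated transcription factors. The letters searched were GAAA, any 2 bases and GAAA again, on either strand (read on the other strand as TTTC, any 2 bases and TTTC), in the 300 bases from 250 before to 50 after each RefSeq gene start (GRCm38.p6). Such a table was at hand for 6 of the 10 genes, and 3 of these 6 held the core, as did 3.99% of all 27025 genes in it. Capitals mark the 10 bases of the core, and each line reads 5′ to 3′ on the gene's own strand.
Ddx58: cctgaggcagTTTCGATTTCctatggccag
Ifih1: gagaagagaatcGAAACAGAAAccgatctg
Eif2ak2: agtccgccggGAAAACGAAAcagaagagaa
The Ddx58 stretch is chr4:40239804-40239833, minus strand, with the core at bases 3 to 12 counted from the RefSeq start, inside an annotated UTR of its first exon (GENCODE M21, same build). For Ifih1 it is chr2:62646206-62646235, minus strand, with the core at bases 33 to 42, inside an exon of 1 annotated transcript. For Eif2ak2 it is chr17:78882535-78882564, minus strand, with the core at bases 19 to 28, inside an annotated UTR. The windows of Mavs, Mb21d1 and Trex1 did not hold these letters. A match describes the letters in the window and is no evidence of binding.

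Among the RIG-I-like receptors the KO values were 0.227 to 0.371 times those in WT. Ddx58 (chromosome 4, 40203773 to 40239828, as all coordinates in GRCm38, which is mm10) encodes RIG-I, which recognises RNA ends that carry a triphosphate. It was at 32.8, 57.8 and 44.5 CPM in KO replicates 1 to 3, against 154, 106 and 103 CPM in WT libraries 1 to 3. KO replicate 2 was the highest KO library, and the groups did not overlap. The log2 fold change of Ddx58 was -1.43 (SE 0.25, adjusted p = 0.0340 by edgeR), and the call was lost with the replicate block (adjusted p = 0.0988 by edgeR).

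Ifih1 (chromosome 2, 62595798 to 62646255) encodes MDA5, the sensor of long double-stranded RNA. Its levels were 17.8, 38.4 and 21.5 CPM in the KO libraries and 122, 127 and 81.2 CPM in the WT libraries, again without overlap. The log2 fold change of Ifih1 was -2.08 (SE 0.31, adjusted p = 0.0246 by edgeR). Both of its transcript rows ran in parallel: the kept row had 183, 480 and 412 reads in KO and 916, 186 and 858 in WT, the other 173, 458 and 389 in KO and 861, 175 and 822 in WT.

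Dhx58 (chromosome 11, 100694884 to 100704271) encodes LGP2, a relative of these helicases that lacks their signalling domains and tunes their activity. It was at 16.0, 37.1 and 22.8 CPM in the KO libraries and at 153, 116 and 66.9 CPM in the WT libraries. WT replicate 3 was the lowest WT library, still above all KO libraries, and the WT libraries differed 2.29-fold among themselves. The log2 fold change was -2.14 (SE 0.39, adjusted p = 0.0465 by edgeR), and the call was lost without the low-count filter (adjusted p = 0.0525) and with the replicate block (adjusted p = 0.0942). An antisense gene, Dhx58os, overlaps its exons, and with the strand setting not given in the sources used here its reads cannot be separated.

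Mavs (chromosome 2, 131234063 to 131248025), the adaptor shared by RIG-I and MDA5, did not follow its receptors. It was at 42.5, 30.7 and 37.6 CPM in the KO libraries and at 31.2, 45.8 and 40.0 CPM in the WT libraries, with overlapping groups. Its log2 fold change was -0.06 (SE 0.22, adjusted p = 0.918 by edgeR), which was smaller than the spread between replicates and turned to 0.06 without KO replicate 2 and 0.07 without WT replicate 2.

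Eif2ak2 (chromosome 17, 78852564 to 78882573) encodes PKR, a kinase that double-stranded RNA activates and that halts translation through eIF2alpha. Its values of 28.3, 32.6 and 21.4 CPM in the KO libraries lay below those of 63.8, 74.6 and 47.6 CPM in the WT libraries. On the log2 scale the difference was -1.16 (SE 0.24), and the edgeR adjusted p of 0.0533 missed the threshold. Noncoding genes overlap its exons on the opposite strand.

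In the DNA-sensing branch, STING was lower and cGAS was not distinguishable at this depth. Tmem173 (chromosome 18, 35733679 to 35740554) was at 70.8, 92.1 and 65.2 CPM in the KO libraries and at 150, 177 and 134 CPM in the WT libraries. No KO library reached the lowest WT library. The difference of -1.01 on the log2 scale (SE 0.18, adjusted p = 0.0359 by edgeR) was the smallest of the 4 called changes.

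Mb21d1 (chromosome 9, 78430526 to 78443237), the gene of cGAS, was weakly expressed, at 6.72, 7.44 and 4.12 CPM in the KO libraries and 10.6, 1.37 and 5.96 CPM in the WT libraries. The WT values straddled the KO values, and that of WT replicate 2 came from 2 reads, below the limit of 3 reads that a count of 0 allows. Its log2 fold change was -0.06 with an SE of 0.62 (adjusted p = 0.977 by edgeR), and the sign changed when KO replicate 3 (0.18) or WT replicate 1 (0.55) was left out.

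Ifi204 (chromosome 1, 173747293 to 173766943) belongs to the PYHIN family of DNA-binding proteins and is best known from macrophages. It was at 3.99, 8.56 and 3.08 CPM in the KO libraries and at 15.5, 26.7 and 27.5 CPM in the WT libraries, the groups not overlapping. The log2 fold change of -2.15 was the most negative of the 10, but its SE was 0.46 and its edgeR adjusted p was 0.0643. The gene lies in a cluster of similar genes, and the counting of reads shared between them is not given in the sources used here. Its relatives Ifi203 (-1.34), Ifi205 (-1.66), Mnda (-1.86) and Mndal (-1.22) also had negative log2 fold changes without a call (adjusted p = 0.0734 to 0.116 by edgeR), and Pyhin1 fell by 1.45 (SE 0.28, adjusted p = 0.0486 by edgeR). The family member Aim2, an inflammasome sensor of DNA, had 26.1 ± 1.34 CPM in the KO libraries and 25.1 ± 3.95 CPM in the WT libraries (SD, n = 3 each), with overlapping groups (0.06, SE 0.21, adjusted p = 0.920 by edgeR). These relatives were named for their family, after values were seen.

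Trex1 (chromosome 9, 109057933 to 109059734), the exonuclease that removes cytosolic DNA before cGAS can bind it, was at 121, 151 and 129 CPM in the KO libraries and at 187, 160 and 188 CPM in the WT libraries. The groups came close, KO replicate 2 lying just under WT replicate 2. With a log2 fold change of -0.42 (SE 0.14, adjusted p = 0.187 by edgeR) Trex1 was not called. Its exons overlap those of Atrip on the same strand, which had 22.7 ± 3.67 CPM in the KO libraries and 23.0 ± 2.64 CPM in the WT libraries (SD, n = 3 each).

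Tlr7 (chromosome X, 167304929 to 167330558), the endosomal receptor for single-stranded RNA, had the fewest reads, 26, 34 and 37 in KO and 30, 11 and 111 in WT. This came to 2.53, 2.72 and 1.93 CPM in the KO libraries and 4.01, 7.53 and 10.5 CPM in the WT libraries. In the fit its log2 fold change was -1.62 (SE 0.53, adjusted p = 0.183 by edgeR), and -1.20 (adjusted p = 0.335 by edgeR) without WT replicate 3.

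Ifi204 is known from myeloid cells, and Tlr7 from myeloid, B and plasmacytoid dendritic cells, so markers of those cells were set beside them. All 11 macrophage and monocyte markers in the table were detected, at a summed 1259 to 1321 CPM in the KO libraries and 466, 634 and 5367 CPM in WT replicates 1 to 3. The 9 B cell markers summed to 20.3 to 32.2 CPM in the KO libraries and to 26.5, 22.6 and 420 CPM in the WT libraries. The 8 plasmacytoid dendritic cell markers summed to 57.6 to 66.7 CPM in the KO libraries and to 61.6, 101 and 272 CPM in the WT libraries. Of the 2 with the highest mean, Pacsin1 overlapped between the groups, at 29.9 to 45 CPM in KO and 30.2 to 59.5 CPM in WT. Ly6d did not, at 3.45 to 4.48 CPM in KO and 10.9 to 120 CPM in WT. The 8 neutrophil markers summed to 87.2 to 107 CPM in KO and to 110, 126 and 701 CPM in WT replicates 1 to 3. WT replicate 3 was thus the highest library for each of these marker sums and for both genes. In WT replicates 1 and 2 the macrophage sum lay below that of every KO library, and the neutrophil sum lay above. Tlr7 and Ifi204 were higher in both of these WT libraries than in any KO library. The part of these cells in the values was not tested. Without WT replicate 3, Ifi204 had a log2 fold change of -1.98 (adjusted p = 0.0744 by edgeR).

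Scaled to transcript length, the order of the genes differed between the groups. In KO, Trex1 led with 126 ± 14.9 CPM per kb, followed by Tmem173 with 33.0 ± 6.15 CPM per kb, and these 2 were separate from each other and from the rest. Mavs (11.9 ± 1.93 CPM per kb), Dhx58 (10.5 ± 4.46), Ddx58 (9.11 ± 2.53), Eif2ak2 (6.34 ± 1.31), Ifih1 (4.70 ± 1.99), Ifi204 (2.27 ± 1.28) and Mb21d1 (1.52 ± 0.436) came next, and the libraries of each neighbouring pair overlapped. Tlr7 was last and separate, at 0.639 ± 0.110 CPM per kb.

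In WT, Trex1 again led with 168 ± 14.9 CPM per kb and was separate from Tmem173 with 66.8 ± 9.24 CPM per kb. Dhx58 followed with 46.4 ± 17.9 CPM per kb, before Ddx58 (24.5 ± 5.78), Ifih1 (20.0 ± 4.59), Eif2ak2 (14.3 ± 3.14), Mavs (12.6 ± 2.39) and Ifi204 (10.1 ± 2.92), each neighbouring pair from Tmem173 to Ifi204 overlapping. Separate from these, Tlr7 (1.96 ± 0.867) and Mb21d1 (1.49 ± 1.15) closed the order, overlapping each other (all SD, n = 3). The adaptor Mavs held rank 3 in KO and rank 7 in WT, with 11.9 and 12.6 CPM per kb.

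**Figure D2:**
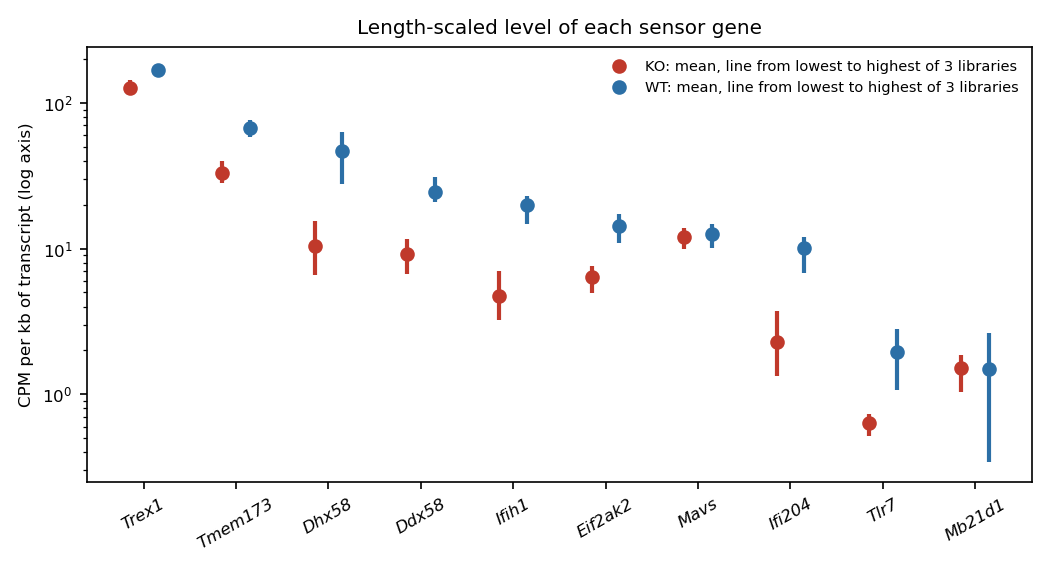
Length-scaled level of the 10 genes (vertical axis: CPM per kb of the kept transcript, log scale; dots: means of 3 libraries; lines: lowest to highest library). Trex1 is highest in both groups at 126 (KO) and 168 (WT) CPM per kb, and the KO and WT lines overlap for Mavs and Mb21d1 only.

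The libraries of a group were not interchangeable for these genes. KO replicate 2 was the highest KO library for 9 of the 10 genes, Mavs being the exception, and it exceeded the lowest KO library 2.32-fold for Dhx58, 2.16-fold for Ifih1 and 2.78-fold for Ifi204. Among WT libraries, replicate 3 was lowest for all 4 called genes and for Eif2ak2. The 4 calls held without KO replicate 2 and without WT replicate 3, where edgeR called 5 sensor genes each time. In the whole table, 124 of 13064 tested genes were called without KO replicate 2. Without WT replicate 3 these were 518 of 12932, against 221 of 12719 with all 6 libraries. edgeR called none in the fits without replicate 1 of KO, 3 of KO, 1 of WT and 2 of WT, where 7, 6, 8 and 8 of the 10 had an unadjusted p under 0.05 and only 4, 7, 33 and 22 genes were called in the whole table. The unadjusted threshold was passed in those fits by 10.9%, 10.2%, 16.8% and 17.9% of all tested genes, in either direction. Over all 6 fits with 1 library left out, the log2 fold changes ran from -1.64 to -1.21 for Ddx58, from -2.47 to -1.87 for Ifih1, from -2.51 to -1.82 for Dhx58 and from -1.17 to -0.88 for Tmem173. When the share of lung epithelial reads entered the model, no gene in the table was called by edgeR, 7 sensor genes had an unadjusted p under 0.05 (8.96% of all tested genes), and the median log2 fold change of the 10 was -1.10. DESeq2 called 6 sensor genes lower (3.90% of all tested genes) and limma-voom 5 (1.38%).

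**Figure D3:**
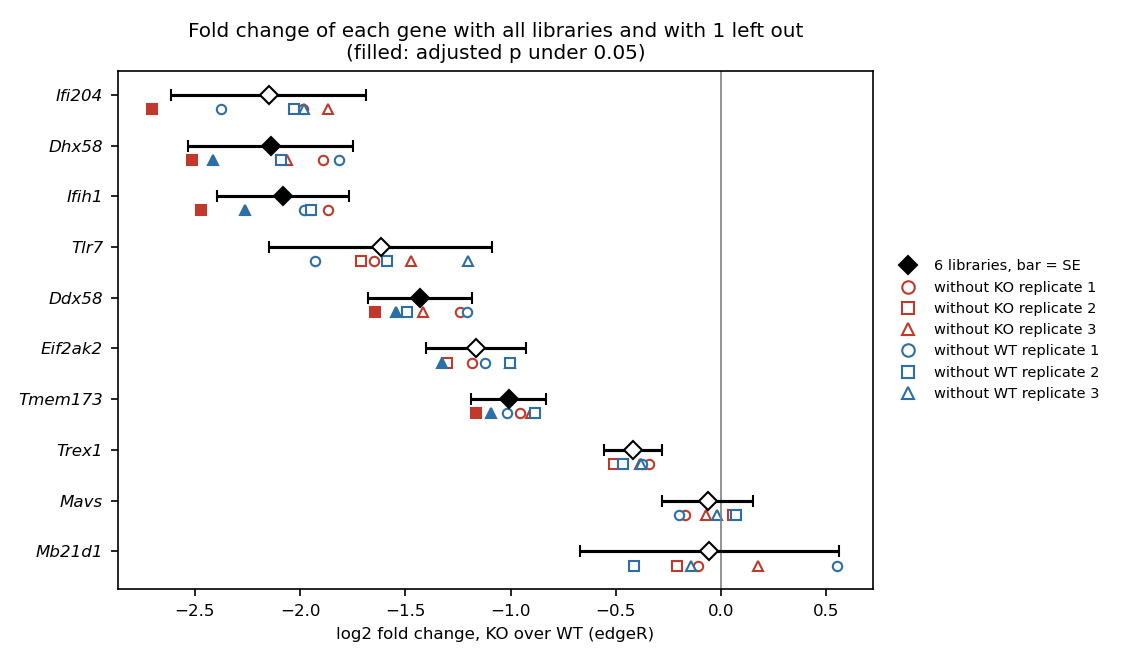
Log2 fold change of each gene, KO over WT (diamonds: all 6 libraries, with SE; small symbols: 1 library left out; filled: edgeR adjusted p under 0.05). Ddx58, Ifih1, Dhx58 and Tmem173 stay between -2.51 and -0.88 whichever library is left out, with filled symbols only without KO replicate 2 or WT replicate 3.

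The partners of these sensors moved in part, and none in the next 3 lists was called higher by edgeR. Of 25 tested partners of the RIG-I-like receptors 2 were called lower: Irf7, a transcription factor for interferon genes, at 116 ± 55.4 CPM in the KO libraries and 450.2 ± 102 CPM in the WT libraries (-1.96 on the log2 scale, SE 0.34, adjusted p = 0.0450 by edgeR), and the helicase gene Ddx60 (-2.18, SE 0.40). The list's median was -0.07. Of 21 genes of DNA sensing 3 were called lower, with a median of -0.29: Zbp1, a sensor of Z-form nucleic acid, at 92.9 ± 34.9 CPM in the KO libraries and 401 ± 119 CPM in the WT libraries (-2.11, SE 0.32, adjusted p = 0.0295 by edgeR), Ifi27l2a (-1.62, SE 0.24) and Pyhin1. Pyhin1 was not called with RLE or upper-quartile factors or without robust estimation, Ddx60 not without robust estimation and Irf7 not without the low-count filter (adjusted p = 0.0509 to 0.0589 by edgeR). In these 2 lists, 0 genes were called without replicate 1 of KO, 3 of KO, 1 of WT or 2 of WT. Calls numbered 1 and 3 without KO replicate 2, and 3 and 6 without WT replicate 3.

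Of 15 genes that clear or edit nucleic acid 3 were called lower, with a list median of -0.13. Apobec3, a cytidine deaminase, was at 39.3 ± 9.26 CPM in the KO libraries and 223 ± 42.1 CPM in the WT libraries (-2.51, SE 0.22, adjusted p = 0.00468 by edgeR). Isg20, an exonuclease, was at 65.5 ± 19.5 CPM in the KO libraries and 274 ± 55.2 CPM in the WT libraries (-2.06, SE 0.24), and Samhd1, which depletes the building blocks of DNA, at 468 ± 75.3 CPM in the KO libraries and 1027 ± 198 CPM in the WT libraries (-1.13, SE 0.18). When 1 library was left out, 1 to 4 genes of this list were called lower, with 4 called without replicate 3 of WT, 3 without replicate 2 of KO, 2 without replicate 1 of WT and 1 in each of the other fits.

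Neither the endosomal TLR list (19 tested, median -0.12) nor the eIF2alpha kinase list (12 tested, median 0.12) had a gene called by edgeR, with 4 and 2 genes at an unadjusted p under 0.05 in either direction, which 15.9% of all tested genes reached. In the first, DESeq2 called Lgmn and Pld3 higher and limma-voom Lgmn alone, and edgeR called Lgmn higher with upper-quartile factors, with no low-count filter and with the longest transcript row, and Lgmn and Ctsb, an endosomal protease, without WT replicate 3. Those of smallest p were Lgmn, another such protease (0.73, SE 0.15, adjusted p = 0.0509 by edgeR), and Pld3, an exonuclease of endosomes (0.56, SE 0.17). In the second, neither DESeq2 nor limma-voom called a gene, and those of smallest p were Eif2s1, the eIF2alpha subunit that PKR modifies (-0.49, SE 0.16), and Asns, a target gene of the pathway (0.77, SE 0.26).

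**Figure D4:**
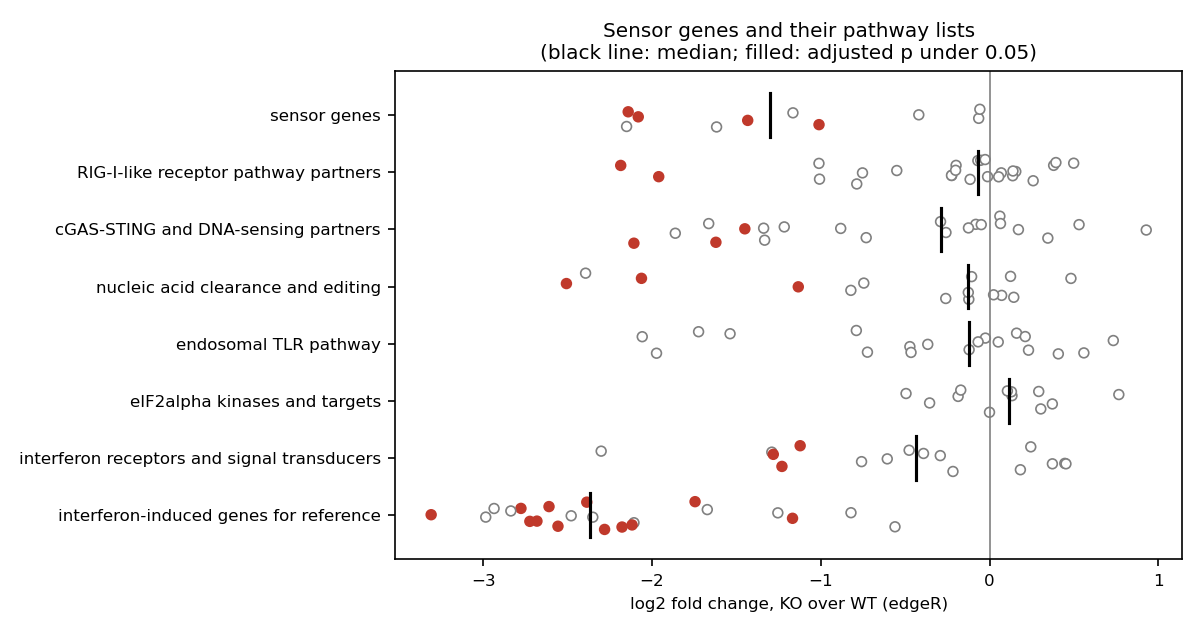
Log2 fold change, KO over WT, of the sensor genes and of the tested genes in each pathway list (dots: genes, spread vertically for legibility; filled: edgeR adjusted p under 0.05; black lines: medians). The sensor median of -1.30 lies below those of the 6 pathway lists, which run from -0.43 to 0.12, and above that of 22 interferon-induced genes at -2.37.

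Few reads came from the type I and type III interferon genes themselves. Of the 19 interferon ligand genes found, 16 had no read in any library, Ifnb1 and every Ifna gene found among them, where 3 reads, the limit a count of 0 allows, equal 0.157 to 0.292 CPM in the KO libraries and 0.284 to 2.05 CPM in the WT libraries. Ifnk had 1 read, in WT replicate 3. Ifnz had 8, 13 and 10 reads in KO and 0, 2 and 1 in WT, which came to 0.779, 1.04 and 0.522 CPM in the KO libraries and 0, 1.37 and 0.0946 CPM in the WT libraries. For Ifnz the value of WT replicate 2, the shallowest library, rested on 2 reads and lay below that library's limit of 2.05 CPM. It cannot be placed above the KO libraries, and the overlap of the groups rests on these 2 reads. Ifng, the type II interferon gene, was at 5.70 ± 2.32 CPM in the KO libraries and 8.18 ± 5.36 CPM in the WT libraries (SD, n = 3 each; log2 fold change -0.53, SE 0.61, adjusted p = 0.732 by edgeR).

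Of 16 interferon receptors and signal transducers 3 were called lower, with a list median of -0.43. Among them were Stat2, which carries the type I interferon signal to the nucleus, at 84.6 ± 9.03 CPM in the KO libraries and 206 ± 31.8 CPM in the WT libraries (-1.28, SE 0.16, adjusted p = 0.0131 by edgeR), and the feedback inhibitor Socs1 (-1.12, SE 0.18). Without replicate 1 of KO, 3 of KO, 1 of WT or 2 of WT none of the 16 was called, and 5 were called lower without WT replicate 3. The receptor genes Ifnar1 (0.37, SE 0.12) and Ifnar2 (0.45, SE 0.16), named after their values were seen, had positive log2 fold changes without a call (adjusted p = 0.174 and 0.230 by edgeR). Among 22 interferon-induced genes taken for comparison 12 were called lower, among them the GTPase gene Gbp2 (-2.61, SE 0.24), Rsad2 (-2.68, SE 0.28), Bst2 (tetherin; -2.18, SE 0.25) and Oas3 (-2.39, SE 0.28). Leaving out replicate 1 of KO, 3 of KO, 1 of WT or 2 of WT left 0, 0, 3 and 1 of these called, and 16 were called without replicate 2 of KO or 3 of WT.

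For each called sensor gene, the tested genes of most similar profile were sought outside the 10 sensor genes. The measure was the root mean square difference of centred log2 CPM over the 6 libraries. Nearest to Ifih1 were Tgtp2 (difference 0.11) and Isg20 (0.12), and nearest to Dhx58 were Cmpk2 (0.17) and Zbp1 (0.21). Slfn3 (0.11) and Trafd1 (0.16) came nearest to Ddx58, although Slfn3 was low, at 1.95 to 2.80 CPM in the KO libraries and 5.58 to 9.36 CPM in the WT libraries. The profile of Tmem173 was matched by Ms4a6b and Kif24 (0.08 and 0.09), of which Kif24 lay at 2.92 to 4.08 CPM in the KO libraries and 6.62 to 7.53 CPM in the WT libraries. Within the 10 genes the closest pairs were Tmem173 with Eif2ak2 (0.14) and Ifih1 with Dhx58 (0.19), and the most distant was Mb21d1 with Ifi204 (1.67). These distances share the same 6 libraries and include the difference between the groups.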

How the data were processed

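The deposited table holds, per the file headers, unnormalised read counts and a length for each RefSeq transcript. The submitters' processing notes name TopHat2 2.2.1, Bowtie2 2.2.6, bcl2fastq and the build mm10. No source used here states the counter, its strand setting, its annotation release or a filter. The table has 31682 rows, all naming a gene, and 0 unused sample columns. The row with most reads was kept per symbol. Genes passing filterByExpr (minimum count 10, minimum total 15) were scaled by TMM and tested, KO over WT, with edgeR 4.0.16's robust quasi-likelihood F-test in R 4.3.3, without a block, adjusting p by Benjamini-Hochberg over 12719 genes (threshold 0.05). SE is the absolute log2 fold change over the square root of F. On simulated data, 23.4% of 2-fold and 63.6% of 4-fold changes were recovered, with 7.99% of calls on unchanged genes. The simulation changed 200 genes and drew each gene independently. Its rates therefore do not cover differences shared by many genes of a library, such as erythroid or lung transcripts. Profiles used log2 CPM with a prior count of 2. Alternatives included DESeq2 1.42.0 and limma 3.58.1. The limit of 3 reads for a count of 0 covers counting error only, while SD and SE include the spread between libraries. The 10 genes and all lists were chosen with earlier results of these data known. Named beside them were Crlf2, Foxp3, up to 4 called genes of smallest p per pathway list (or 2 if none), ligands with a read, and the 2 nearest profiles per called gene; others are marked. A gene that this rule names is not reported here.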

Additional observations from a re-analysis of the deposited data

How the results depend on the processing

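Of the 10 sensor genes, 8 kept a negative log2 fold change under all 16 alternatives. Mavs and Mb21d1, never called, changed sign: Mavs to 0.058 without KO replicate 2 and 0.069 without WT replicate 2 (range with 1 library left out -0.20 to 0.069), and Mb21d1 to 0.82 with the lung epithelial share as covariate, 0.12 with the replicate block, 0.18 without KO replicate 3 and 0.55 without WT replicate 1 (range -0.41 to 0.55). Foxp3 changed to -0.067 without WT replicate 3 (range -0.067 to 0.47). Sensor genes called lower numbered 0 with the lung epithelial covariate and 0 to 5 when 1 library was left out. Genes called in the whole table, 221 in the main comparison, numbered 863 with DESeq2, 0 with the lung epithelial covariate (1140 at an unadjusted p under 0.05) and 4 to 518 when 1 library was left out; the causes were not tested. Scaled to pan-T cell genes, the median of all genes was -0.31 instead of -0.04 and the calls were 29 higher and 146 lower instead of 96 and 125, with 5 sensor genes lower. Replicate numbers were not taken as pairs, because they are not said to pair samples. Deviations from the group means correlated at r = 0.0839, -0.147 and -0.0446 between same-numbered KO and WT libraries, which cannot exclude a pairing. With the replicate block, 123 genes were called, with Ifih1, Tmem173 and Eif2ak2 among the sensor genes. Without the low-count filter 4 sensor genes were called, with Eif2ak2 in place of Dhx58. Eif2ak2 was called in 5 alternatives, Ifi204 in 3, and Trex1 and Tlr7 in none. Depth limits Mb21d1 and Tlr7 most, whose WT replicate 2 values rest on 2 and 11 reads.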
